A study of Oryctolagus cuniculus with 4 samples.

Results

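CDKN1A, CDKN1B and CDKN3, which act on cyclin-dependent kinases, and MDM2, CCNG1, GADD45A, BAX, SESN1 and BTG2, which answer to p53, are the 9 genes described here in rabbit blastocysts. Their probes were found on the array by gene name, transcript identifier or description. Probes were found for 7 of the 9 genes, 23 of the 43603 probes on the array, and these 7 are among 9747 genes that could be named there. MDM2 and SESN1 had no probe under their own names. Probes described as Mdm2 binding protein belong to MTBP and were not used.

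Parthenotes came from oocytes activated with electrical pulses (3.2 kV/cm, 20 µs) and then kept for 1 h in 5 µg/µL cycloheximide and 2 mM 6-DMAP. They grew to blastocysts in the oviducts and uterus of recipient New Zealand White does and were recovered at day 6, alongside blastocysts from artificially inseminated does that were flushed at the same age. Each of the 4 arrays received RNA of 1 parthenote pool labelled with Cy3 and RNA of 1 fertilised pool labelled with Cy5, each amplified from 150 ng. No array had the dyes the other way round, so dye and group cannot be told apart, and the 4 arrays, which set the precision of each value, shared a single slide.

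p53 is a transcription factor that becomes active when DNA is damaged or a cell is under stress, and it switches on genes that halt the cell cycle, repair DNA or start apoptosis. CDKN1A encodes p21, which binds cyclin-CDK complexes and stops cells before S phase, and it is the best known p53 target. Many other signals also act on CDKN1A, so p53 activity is usually read from several of its targets together. The 9 genes were chosen with the comparison of parthenotes and fertilised embryos already known, and their values are therefore given as a description with no test.

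The probes are 60 bases long, and the sequences of 6 of them are shown because the values below are read from these stretches of the transcripts. The CDKN1A probe ends in the stop codon of an open reading frame, which is in capitals. Capitals in the CDKN1B, CDKN3 and GADD45A probes mark the bases shared by all of their overlapping probes, 5, 3 and 5 probes respectively. The BTG2 and BAX probes each stood alone.
CDKN1A: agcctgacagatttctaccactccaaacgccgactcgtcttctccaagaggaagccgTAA
CDKN1B: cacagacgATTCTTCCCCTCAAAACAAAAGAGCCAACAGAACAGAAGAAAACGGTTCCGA
CDKN3: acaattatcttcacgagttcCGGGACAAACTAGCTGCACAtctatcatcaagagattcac
GADD45A: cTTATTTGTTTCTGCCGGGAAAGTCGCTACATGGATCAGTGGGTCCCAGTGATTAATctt
BTG2: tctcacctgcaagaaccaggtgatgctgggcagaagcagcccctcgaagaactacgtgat
BAX: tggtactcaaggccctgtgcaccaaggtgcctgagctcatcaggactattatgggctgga

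The array files place the CDKN1A probe at chr12:26618363-26619857 on the plus strand, without naming the genome build. This interval is 1495 bases long, so the probe crosses an intron. The CDKN1B probe shown lies at chr8:27013409-27014024 on the minus strand and also crosses an intron. The other probes shown lie at chr17:73135616-73135675 on the plus strand for CDKN3, chr13:98577803-98577862 on the minus strand for GADD45A and chr16:68473384-68473443 on the minus strand for BTG2. The BAX probe is unmapped in the files. CDKN1B has a second group of 5 overlapping probes that lies 2234 bases further along its strand. The 2 CCNG1 probes match a locus that the RefSeq table lists as a pseudogene named cyclin G1, so their values may not come from the CCNG1 gene itself.

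CDKN1A was higher in the parthenote pool on all 4 arrays and had the largest ratio of the 7 genes, followed by GADD45A and BTG2, both of which halt growth after stress. CDKN3 and CDKN1B were slightly higher, CCNG1 went both ways and BAX was level. At the brightest probe 5 of the 7 genes were higher on all 4 arrays, beside 23.2% of all named genes. The 7 genes were chosen with the comparison known, so this count is a description. All 23 probes stood well above background in every pool of either group, and none was saturated. The signals are in the arbitrary units of the scanner software after background subtraction and dye normalization, and all ratios are log2 of parthenote over fertilised. Across the array 20.6% of 43595 probes passed an adjusted p of 0.05 in limma, 9.53% with the higher level in parthenotes and 11.1% with the lower. Of the 23 probes 7 passed, all higher, in CDKN1A, CDKN1B and CDKN3, and this count is fixed in part by how the genes were chosen. The methods' t-test passed 0 of the 23 after adjustment and 18 at an unadjusted p under 0.05. Over the whole array it passed 10.2% of probes after adjustment and 32.1% at an unadjusted p under 0.05.

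**Figure D1:**
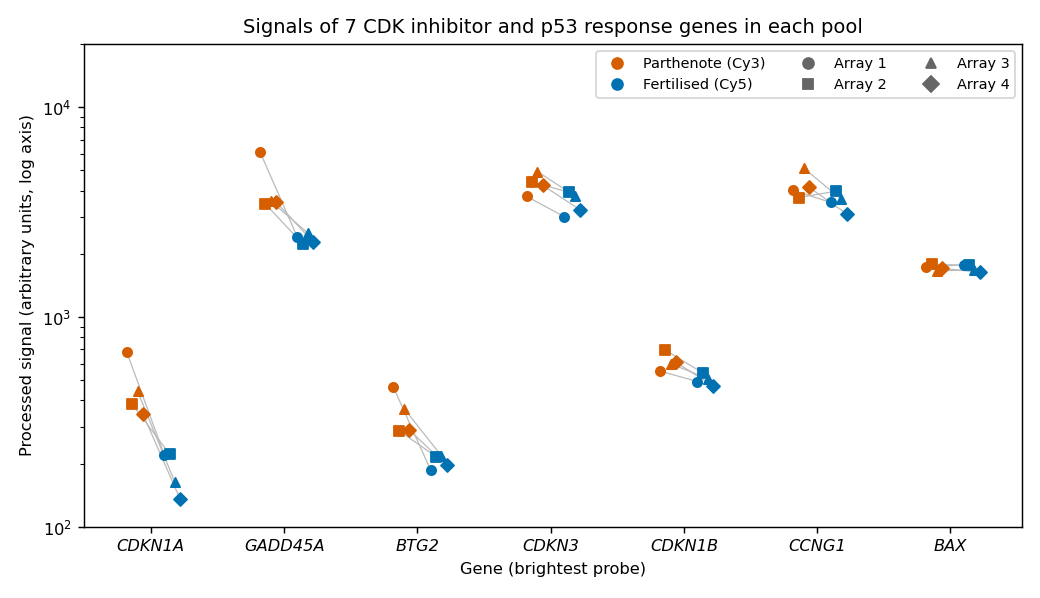
Processed signal in arbitrary units on a log axis for the brightest probe of each gene. Orange symbols are parthenote pools and blue symbols fertilised pools, and each grey line joins the pools of 1 array, with the symbol shape giving the array. For CDKN1A, GADD45A, BTG2 and CDKN1B every parthenote pool lies above every fertilised pool, while the pools of BAX lie together between 1634 and 1780. The share of all named genes without overlap was not counted.

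The CDKN1A probe gave processed signals of 678, 384, 443 and 345 in the parthenote pools on arrays 1 to 4. In the fertilised pools it gave 221, 222, 163 and 135. Every parthenote pool was above every fertilised pool, and the parthenote pool of array 1 was the highest of all. The log2 ratios were 1.62, 0.79, 1.44 and 1.35, with a mean of 1.30 ± 0.36 (SD, n = 4), a 2.46-fold difference. Of the named genes, 97.4% had a lower mean log2 ratio.

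CDKN1B encodes p27, which holds cells in G1 and is governed mostly through the stability of the protein. Its brightest probe gave 552, 695, 598 and 608 in the parthenote pools. The fertilised pools gave 493, 542, 508 and 469. The groups did not overlap, but the gap was small, with a mean log2 ratio of 0.28 ± 0.10 (SD, n = 4), or 1.22-fold. The mean ratios of the 10 CDKN1B probes ran from 0.25 to 0.43, and array 1 was the lowest of the 4 arrays for 10 of the 10. CDKN1B was thus lowest on the array on which CDKN1A was highest. The 10 probes form 2 groups of overlapping sequences and are not independent measurements.

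CDKN3 encodes a phosphatase that removes the activating phosphate of CDKs, and its transcript is most abundant in dividing cells. Its brightest probe gave 3752, 4396, 4933 and 4243 in the parthenote pools and 3012, 3927, 3783 and 3245 in the fertilised pools. These ranges overlap, but the parthenote pool was the higher on each array. The mean log2 ratio was 0.31 ± 0.10 (SD, n = 4), and the 3 probes had means between 0.25 and 0.31.

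**Figure D2:**
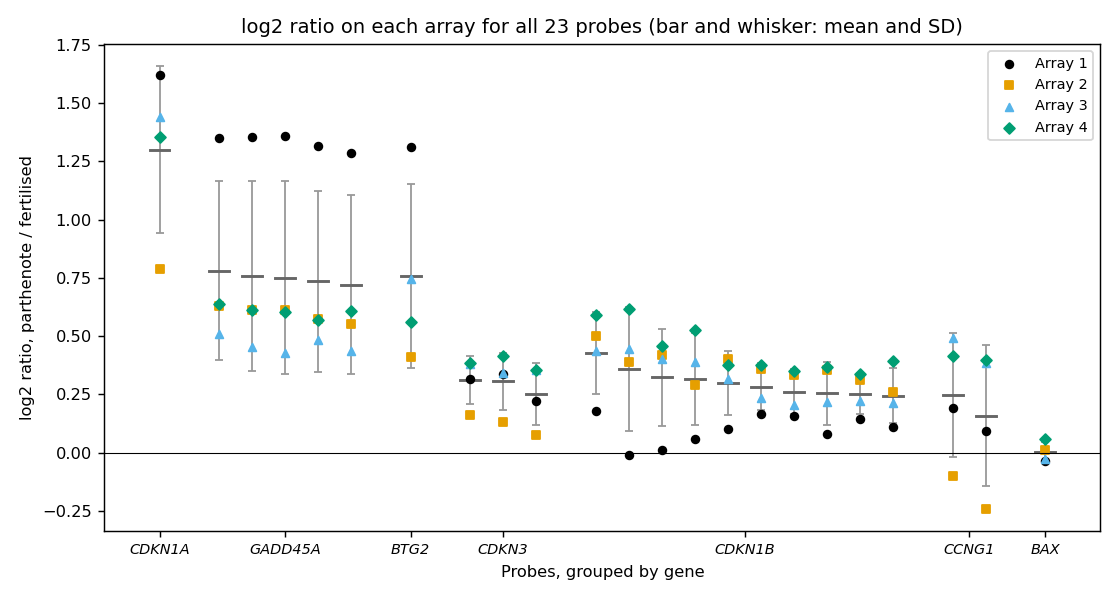
log2 ratio of parthenote over fertilised on each array for all 23 probes, grouped by gene, with the mean and SD of each probe over 4 arrays. Array 1 gave the highest ratio at the CDKN1A, GADD45A and BTG2 probes and the lowest at all 10 CDKN1B probes.

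GADD45A encodes a small nuclear protein induced by DNA damage that takes part in growth arrest and repair. In the parthenote pools its brightest probe gave 6098 on array 1 against 3450, 3565 and 3534 on arrays 2 to 4. In the fertilised pools it gave 2395, 2231, 2504 and 2269, a narrow range that no parthenote pool entered. The log2 ratio was 1.35 on array 1 and 0.63, 0.51 and 0.64 on the others, for a mean of 0.78 ± 0.38 (SD, n = 4). Without array 1 the mean was 0.59. All 5 probes had their highest ratio on array 1 and their lowest on array 3, with means from 0.72 to 0.78, but they differ from each other by shifts of a few bases and share 56 bases.

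BTG2 encodes an antiproliferative protein that acts in mRNA deadenylation and in transcription. Its probe gave 462, 287, 366 and 289 in the parthenote pools and 186, 216, 218 and 196 in the fertilised pools. The groups did not overlap. The log2 ratios were 1.31, 0.41, 0.75 and 0.56, with a mean of 0.76 ± 0.39 (SD, n = 4), and without array 1 the mean was 0.57. GADD45A and BTG2 both had a larger mean ratio and a larger spread between arrays than CDKN3 and CDKN1B.

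BAX encodes the protein that permeabilises the outer membrane of mitochondria in apoptosis. Its signals were 1729, 1780, 1654 and 1703 in the parthenote pools and 1773, 1766, 1683 and 1634 in the fertilised pools. The groups overlapped over nearly their whole range, and the mean log2 ratio was 0.00 ± 0.04 (SD, n = 4). CCNG1 encodes cyclin G1, which recruits a phosphatase to MDM2. The brighter of its probes gave log2 ratios of 0.19, -0.10, 0.49 and 0.42, a mean of 0.25 ± 0.27 (SD, n = 4), and the other gave a mean of 0.16 ± 0.30. The parthenote pool was the lower at both CCNG1 probes on array 2.

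The order of the mean ratios was CDKN1A, GADD45A, BTG2, CDKN3, CDKN1B, CCNG1 and BAX. GADD45A and BTG2 differed by less than their SD, as did CDKN3, CDKN1B and CCNG1. Among 6713 other named genes that stood well above background in every pool, the 5 with log2 ratios most like those of CDKN1A were ATP4A, LXN, EPHX1, MORN2 and DOCK8. Likeness was the root mean square difference over the 4 arrays, which was 0.16 for ATP4A, the alpha subunit of the gastric proton pump, and 0.25 for DOCK8. None of the other 6 genes described here was among the nearest 10.

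**Figure D3:**
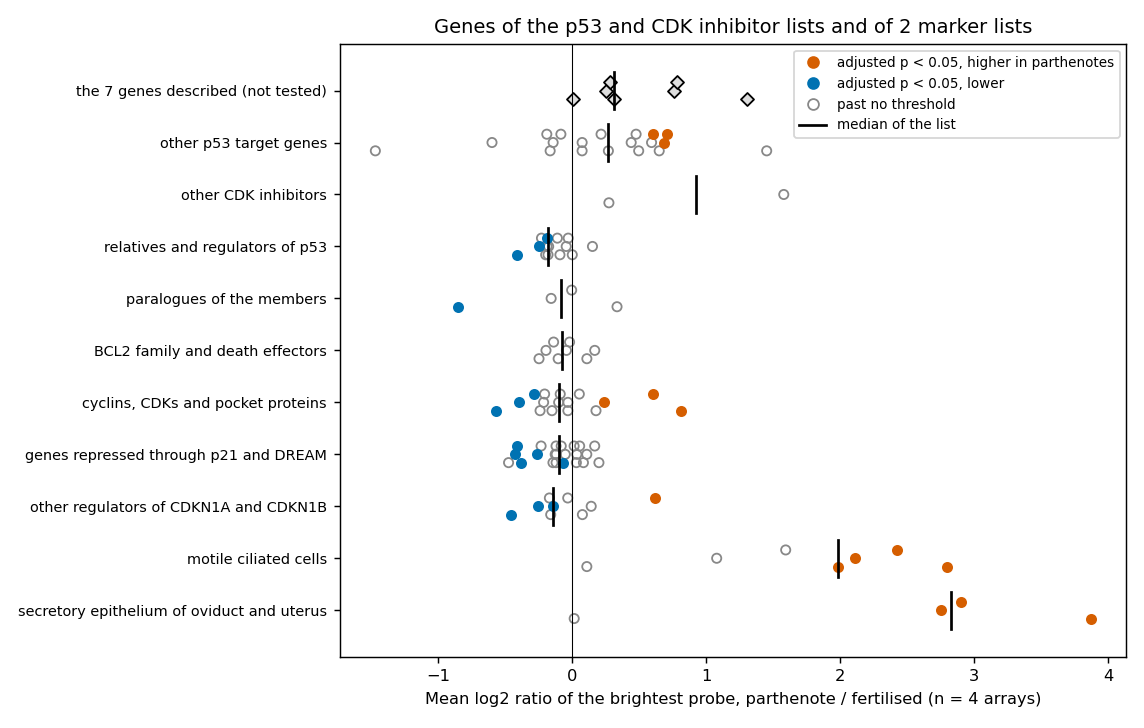
Mean log2 ratio of the brightest probe over 4 arrays, parthenote over fertilised, with 1 point per gene and a vertical bar at the median of each list. Filled circles passed an adjusted p of 0.05. Grey diamonds show the genes described and are drawn alike whether or not they passed. The other p53 target genes lie on both sides of 0 with a median of 0.27, and the genes with the largest ratios belong to the ciliated and secretory epithelium lists.

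The question of whether other p53 targets were also higher was put to a list of 35 genes that p53 is known to induce, of which 19 had a probe. The brightest probe of each gene was read, and 24.1% of all 9736 such probes passed the threshold, 11.8% higher in parthenotes and 12.3% lower. Of the 19 targets 3 rose, 0 fell and 16 did not pass, and at an unadjusted p under 0.05 there were 7 higher and 1 lower in limma, beside 20.2% and 22.2% of all named genes. The methods' t-test called 2, both higher. The median log2 ratio of the 19 genes was 0.27 against 0.00 for all named genes, with 13 above 0 and 6 below.

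ATF3, a stress-induced transcription factor, had processed signals of 151, 183, 170 and 165 in the parthenote pools and 84.2, 112, 105 and 111 in the fertilised pools. The groups did not overlap, and the log2 ratio was 0.70 ± 0.12 (SD, n = 4; adjusted p = 0.012 in limma). The call was lost without array 2 or array 3. RPS27L, a ribosomal protein paralogue that modulates MDM2, had 66846 to 71795 in the parthenote pools against 40439 to 44556. Its ratio of 0.69 ± 0.04 (SD, n = 4; limma adjusted p = 0.0043) was the steadiest of the list and stayed past the threshold when any 1 array was left out. TIGAR, which lowers glycolytic flux, rose by 0.61 ± 0.21 (SD, n = 4; limma adjusted p = 0.034), and here the call was lost without any 1 of the 4 arrays. With normexp correction and loess ATF3 and TIGAR still passed, at the lower ratios of 0.40 and 0.29.

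SESN2, a stress sensor related to SESN1, lay next to the threshold with 0.44 ± 0.19 (limma adjusted p = 0.05002). XPC, which recognises DNA lesions, had 0.59 ± 0.26, and TP53INP1, a nuclear cofactor of p53, had 0.65 ± 0.33. FAS, a death receptor, had -1.47 ± 1.12. These 4 genes did not pass the threshold at their brightest probes. Of the 6 FAS probes 2 passed as lower, and of the 5 TP53INP1 probes 1 passed as higher. FAS also passed as lower with normexp and loess and with the mean of its probes. Its brightest probe was dim, with 4.52 to 27.1 in the parthenote pools.

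How many targets passed depended on how dim probes were treated. The software sets a ratio of 0 where neither channel has a usable signal, and 6335 of the 43595 probes had a ratio of 0 on all 4 arrays, which enter the spread that limma shares between probes. When the test was limited to the 26725 probes that stood clear of background in one group or the other on each array, 42.2% of them passed. Then 6 of 18 targets rose (ATF3, RPS27L, SESN2, TIGAR, TP53INP1 and XPC) and 2 fell (DRAM1 and FAS). With that filter 20 of the 23 probes of CDKN1A, CDKN1B, CDKN3, GADD45A, BTG2, CCNG1 and BAX passed. Leaving out single arrays lowered the calls over the whole array, from 20.6% of probes to 13.2% without array 1, 4.45% without array 2, 6.05% without array 3 and 2.85% without array 4. ATF3 and RPS27L passed as higher and DRAM1 as lower without array 1, RPS27L alone without array 2 or array 3, and ATF3 and RPS27L without array 4. Of the 23 probes of the genes described, 9 passed without array 1, 3 without array 2 and 0 without either array 3 or array 4 in limma. Without array 3 and array 4, 12 and 8 of the 23 had an unadjusted p under 0.05 in limma, beside 29.3% and 27.1% of all probes. The probes that passed were not always of the same genes. At the brightest probes GADD45A alone passed without array 1, and CDKN1A and CDKN3 passed without array 2. CDKN1A thus lost its call without array 1, array 3 or array 4.

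The p53 targets differed between arrays more than their means show. Of the 17 targets that stood well above background in every pool, 12 had their highest log2 ratio on array 1, against 36.8% of the 6714 named genes measured as well. In 15 of 17 the ratio on array 1 lay above the mean of arrays 2 to 4, against 54.6% of those named genes. The median excess of array 1 was 0.35 for the targets and 0.03 for the named genes. This pattern was noticed in the values and is given as a description, with no test.

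The channels were also read apart. On array 1 the log2 signal of the 17 targets exceeded the mean of the other arrays by a median of 0.16 in the parthenote channel and by -0.02 in the fertilised channel, against 0.08 and 0.05 for all named genes. ZMAT3, an RNA-binding p53 target, had log2 ratios of 1.19 on array 1 and 0.26 on average on the others. PLK2, a stress-regulated kinase, had 1.15 and 0.25, and RRM2B, the p53-inducible subunit of ribonucleotide reductase, had 0.82 and 0.09. DRAM1, a regulator of autophagy, had 0.06 on array 1 and -0.82 on the others.

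RPS27L and TIGAR did not share the pattern, with an excess of 0.00 and 0.07, and PERP, a desmosomal p53 target, had -0.35. Without array 1 the median log2 ratio of the 17 targets was 0.11, against 0.27 with it. CDKN1A had a log2 ratio of 1.62 on array 1 and a mean of 1.19 without that array.

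**Figure D4:**
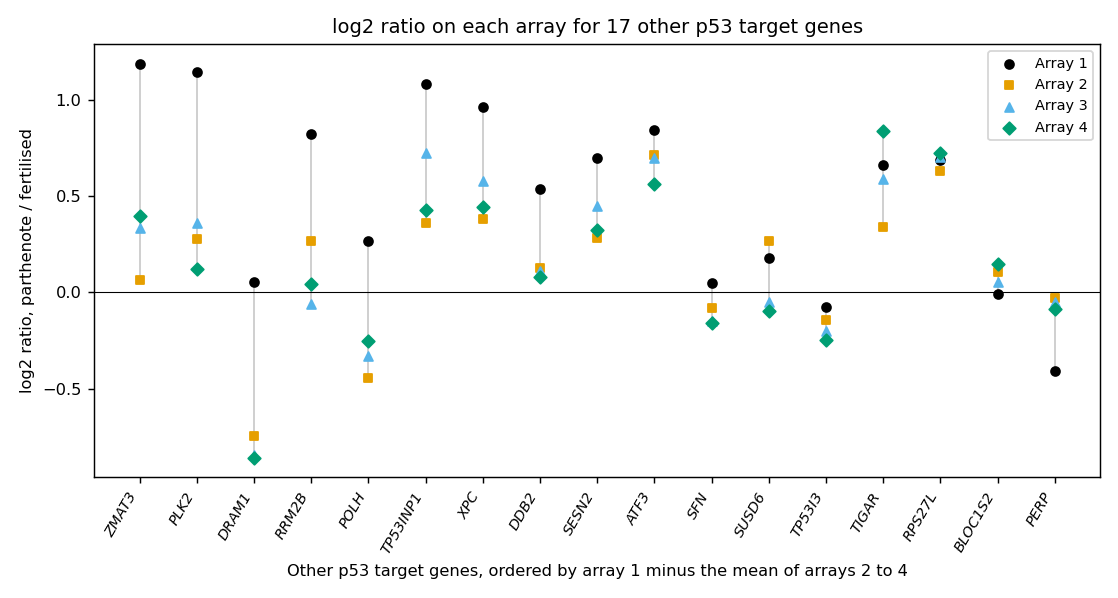
log2 ratio of parthenote over fertilised on each of the 4 arrays for the 17 other p53 target genes that stood well above background in every pool, ordered by the excess of array 1 over the mean of the others. Array 1 is the highest symbol for 12 of the 17 genes, from ZMAT3 at 1.19 down to TP53I3 at -0.07.

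Of 19 relatives and regulators of p53, 14 had a probe, 0 rose and 3 fell, beside 12.3% of all named genes lower. At an unadjusted p under 0.05 there were 0 higher and 6 lower in limma, and the methods' t-test called 0 higher and 1 lower. These counts are of the brightest probes. Of the 4 RCHY1 probes 3 passed as lower, as did 3 of the 6 PRKDC probes. With the mean over the probes of each gene, 0 rose and 5 fell in limma. MDM4, which restrains p53, had -0.09 ± 0.28. The checkpoint kinases CHEK1 and CHEK2 fell by 0.41 ± 0.03 and 0.19 ± 0.06 on the log2 scale (SD, n = 4; limma adjusted p = 0.0046 and 0.033), and USP7, which removes ubiquitin from MDM2 and p53, fell by 0.25 ± 0.08 (limma adjusted p = 0.030). CHEK1 stayed past the threshold without any 1 array, and CHEK2 and USP7 did not.

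Of the other 5 CDK inhibitors, CDKN1C, CDKN2A and CDKN2D had no probe under their names. CDKN2C, which binds CDK4 and CDK6, had signals of 27.6, 41.1, 29.8 and 22.3 in the parthenote pools and 10.2, 29.8, 4.28 and 7.29 in the fertilised pools. The fertilised pools were well above background on 1 of the 4 arrays only, and the ratio of 1.58 ± 0.96 did not pass. CDKN2B was not well above background in any parthenote pool. Among the 4 measured paralogues of the genes described, BTG3 fell by 0.85 ± 0.05 (SD, n = 4; limma adjusted p = 0.0044), in the opposite direction to the ratio of BTG2, and GADD45G, BTG1 and CCNG2 did not pass.

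The BCL2 family and death effectors, to which BAX belongs, had 8 of 18 genes measured and 0 called in limma, with 1 at an unadjusted p under 0.05 and 0 by the methods' t-test. Over all named genes 24.1% were called in limma after adjustment. Their median log2 ratio was -0.07, and they ran from -0.25 for BCL2L1 to 0.17 for HRK. CASP9, the initiator caspase of the mitochondrial pathway, had 0.11. These counts are of the brightest probes. MCL1, which protects cells from apoptosis, had -0.11 at its brightest probe, but 4 of its 5 probes passed as lower, and the mean of the 5 was -0.19 (limma adjusted p = 0.034).

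The cyclins, CDKs and pocket proteins, the machinery on which CDK inhibitors act, had 16 of 21 genes measured. Of these 3 were higher and 3 lower, beside 11.8% and 12.3% of all named genes. Among the pocket proteins, RB1 rose by 0.81 ± 0.08 and RBL2 by 0.60 ± 0.10, while RBL1 fell by 0.57 ± 0.23 (SD, n = 4; limma adjusted p = 0.0067, 0.012 and 0.046). RB1 stayed past the threshold without any 1 array. RB1 and RBL2 stayed higher by 0.39 and 0.25 after normexp correction and loess, but RBL2 no longer passed. CCND3, a D cyclin, rose by 0.24 ± 0.09, and CCNE1, the E cyclin of the G1 to S transition, fell by 0.29 ± 0.04, as did CKS2, a CDK subunit, by 0.39 ± 0.15 (limma adjusted p = 0.0396, 0.0110 and 0.0397). CCND3 lost its call without any 1 of the arrays and with normexp and loess, and RBL1, RBL2, CCNE1 and CKS2 lost theirs without 1 or more of the arrays. CDK1, CDK2, CDK4 and CDK6 had log2 ratios between -0.09 and 0.18 and did not pass.

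Genes that p21 is known to repress through the DREAM complex had 22 of 27 measured, with 0 higher and 5 lower, beside 12.3% of all named genes lower. KIF23 fell by 0.43 ± 0.11, CHEK1 by 0.41 ± 0.03, PLK4 by 0.38 ± 0.09, AURKA by 0.27 ± 0.06 and MYBL2 by 0.07 ± 0.01 (SD, n = 4; limma adjusted p between 0.0046 for CHEK1 and 0.023 for KIF23). The median of the list was -0.10, with 14 genes below 0 and 8 above. MYBL2 did not pass with normexp and loess (limma adjusted p = 0.25). CCNB1 and CCNB2, the mitotic B cyclins, had 0.11 and -0.12, and MKI67, a marker of dividing cells, had 0.06. These 3 did not pass at their brightest probes, and of the 3 CCNB2 probes 1 passed as lower. At an unadjusted p under 0.05, 2 genes of the list were higher and 8 lower in limma, and the methods' t-test called 0 higher and 5 in all. The count of genes called lower was 1 without array 1, 2 without array 2, 3 without array 3 and 1 without array 4.

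Other genes known to act on CDKN1A or CDKN1B had 9 of 18 measured, with 1 higher and 3 lower, beside 11.8% and 12.3% of all named genes. KLF6, a zinc finger activator of CDKN1A, rose by 0.62 ± 0.16 on the log2 scale (SD, n = 4). STAT3 fell by 0.45 ± 0.17, SMAD2 by 0.26 ± 0.08 and MYC, a repressor of CDKN1A, by 0.15 ± 0.05. The adjusted p of these 4 genes lay between 0.022 for KLF6 and 0.039 for STAT3 in limma, and each lost the call when 1 or more of the arrays was left out.

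Markers of other cell types moved with the group, and their counts stand beside 11.8% of all named genes called higher. Of 12 markers of motile ciliated cells 7 were measured and 4 rose, among them CAPS by 2.42 ± 0.42 and DYNLRB2 by 1.98 ± 0.54, and the summed signal of the 7 was 1452 to 3645 in the parthenote pools against 480 to 622 in the fertilised pools. The master regulator FOXJ1 was not well above background in any pool. Of 8 markers of oviduct and uterus secretory epithelium 4 were measured and 3 rose, with OVGP1 at 3.87 ± 0.29, PIGR at 2.90 ± 0.42 and SCGB1A1 at 2.75 ± 0.45 (SD, n = 4), and the sum of the 4 was 8768 to 33228 against 4556 to 8229. On arrays 1 to 4 the ciliated sum was 2653, 1452, 3645 and 2404 in the parthenote pools, lowest on array 2 and highest on array 3. The CDKN1A ratio was also lowest on array 2, but a ratio and a signal are unlike measures. The CDKN1A signal in the parthenote pools was lowest on array 4, at 345, and highest on array 1, at 678. The secretory sum was 8768, 14937, 33228 and 19431 on the same arrays, lowest on array 1. That low sum came from WFDC2, which did not pass and gave 1577, 9019, 7116 and 5888. The parthenote signals of the 3 secretory markers that rose were each lowest on array 2, at 3014 for OVGP1, 2788 for SCGB1A1 and 116 for PIGR. Array 1 was also low for OVGP1, at 3677 against 19178 on array 3 and 9412 on array 4. In log2 ratios OVGP1 and PIGR were lowest on array 2, at 3.46 and 2.30, but SCGB1A1 was lowest on array 1, at 2.18. The part of such cells in the CDKN1A ratio was not tested.

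Fewer markers of other cells passed, again beside 11.8% of all named genes called higher. Of 9 stroma and smooth muscle markers 1 rose, with summed signals of 3660 to 5070 against 2340 to 3216, while COL1A1, ACTA2 and MYH11 were not well above background in any pool. Of 6 measured leukocyte markers CD48 and CD68 rose, with sums of 233 to 260 against 132 to 165, and PTPRC and CD3E were not well above background in any pool. Of 2 erythroid markers ALAS2 rose, with sums of 362 to 437 against 225 to 327. The stroma sum of the parthenote pools was highest on array 1, where the CDKN1A ratio was also highest, and TAGLN alone gave 4656 of the 5070. The erythroid sum was nearly equal on arrays 1 and 3, at 437 and 434, and ALAS2 was highest on array 3. Of the named genes well above background, 43.0% had their highest parthenote signal on array 1. The part of stroma and erythroid cells in the CDKN1A ratio was not tested.

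The markers of the blastocyst itself were present. The 5 measured trophectoderm markers summed to 155440 to 182590 in the parthenote pools and 111420 to 123710 in the fertilised pools, with KRT8 and KRT18 higher and GATA2 lower. POU5F1, a marker of pluripotent cells, was higher by 0.21 ± 0.03, while LIN28A, the other marker measured of that list, had -0.22 ± 0.15 (SD, n = 4) and did not pass. The primitive endoderm was represented by GATA4 alone, which did not pass. In pools of whole embryos, a different share of a cell type and a different amount of RNA per cell cannot be told apart.

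The ratios of the 7 genes were also computed under other processing, which the plot of settings shows. Normexp correction with loess lowered CDKN1A to 1.00 and BTG2 to 0.59, and no setting brought the mean of CDKN1A, GADD45A or BTG2 below 0.57. The order of CDKN1A above GADD45A and BTG2, and of these above the other 4 genes, was the same in every setting shown.

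**Figure D5:**
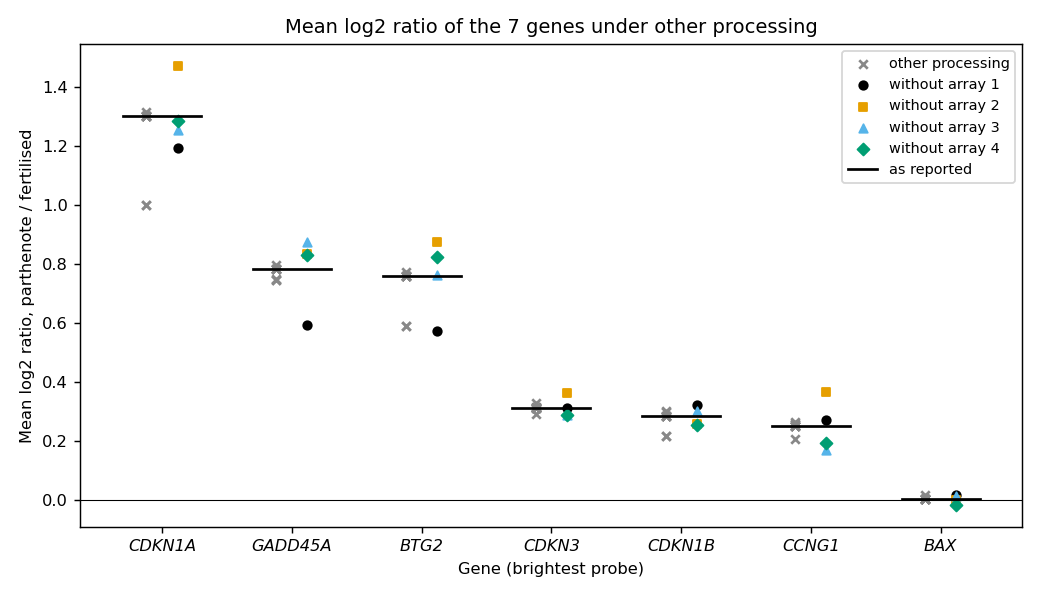
Mean log2 ratio of the brightest probe of each of the 7 genes, parthenote over fertilised, as reported (bar), with each array left out (coloured symbols) and under other processing (crosses). CDKN1A stayed between 1.00 and 1.47, and GADD45A and BTG2 fell furthest when array 1 was left out, to 0.59 and 0.57.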

How the data were processed

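RNA of 4 independent pools of embryos per group was measured on a 2-colour rabbit array. Per the labels, the submitters' processing notes name Agilent Feature Extraction 10.10.1.1. The deposited processed intensity of each channel is background-subtracted and dye-normalized, and the mean and local background intensity are not. The authors' deposited log10 ratio is processed Cy5 over Cy3, and their value table gives that ratio with the opposite sign. Here it was put on the log2 scale as parthenote over fertilised. Per the file headers, flag columns with no unit mark spots above background, saturated or outlying, and outlying spots were set to missing. The authors themselves used GeneSpring for a t-test, adjusted by Benjamini-Hochberg.

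Control spots were left out, and repeated spots were averaged within each probe. Probes measured on 3 or more arrays, 43595 in all, entered a limma model (version 3.58.1, R version 4.3.3, functions lmFit and eBayes) tested on both sides at a Benjamini-Hochberg adjusted p of 0.05 over all of them. The model compares the pools within each array. Values were handled in data.table (1.17.8), and figures were drawn with matplotlib (3.10.9) from pandas tables (2.3.3, with numpy 2.4.6) in Python (3.11.15). Symbols came from the RefSeq table of the rabbit assembly mOryCun1.1, used for names only, and from the array's own annotation, for 21982 of 43603 probes. Each gene was read at its brightest probe. The test was tested on simulated data with the spreads that limma gave for 43595 probes. It recovered 15 of 50 probes changed 1.5-fold, 36 of 50 changed 2-fold and 46 of 50 changed 5-fold, with 12 false calls. The changed probes were drawn from those well above background in every parthenote pool. They were far fewer than the 8996 probes that passed in the data, which makes the adjustment stricter, so these recovery rates need not hold for the data.

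The genes described and the lists were chosen with earlier results of these data known. Named by rule were the genes described, CDKN1C and MDM4, up to 3 higher and 3 lower genes of each list with the largest ratio among those past the threshold with 1 sign on all arrays, and the 5 genes most like CDKN1A. Some genes of the lists are not reported here and were left out of the list counts. Other genes were named after their values were seen. Alternatives were normexp (offset 50) with loess, also with Aquantile, the ratio of processed signals, median centring, the value table, the dim-probe filter, marked spots kept, the methods' t-test, no replicate block, an intensity trend, each replicate left out, and the mean over the probes of each gene.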

Additional observations from a re-analysis of the deposited data

Results flagged for a closer look

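Groups of 4 arrays were searched for a single array far from the other 3, by the size of its gap relative to the range, and 5 of the 82 genes searched had one. Chance gives about 1 in 20. GADD45A had a log2 ratio of 1.35 on array 1, against 0.51 to 0.64 on the others. Array 1 also stood apart for the p53 targets DDB2, at 0.54 against 0.08 to 0.13, and DRAM1, at 0.056 against -0.86 to -0.75. It stood apart in the other direction for PERP, at -0.41 against -0.08 to -0.03. The ciliated cell marker CAPS stood apart on array 2, at 1.80 against 2.54 to 2.68.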

How the results depend on the processing

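The log2 ratio of CDKN1A stayed within 1 SD of its reported value of 1.30 under all 13 alternatives run for it, between 1.00 (normexp with loess) and 1.47 (without replicate 2), and the ratios of CDKN1B, CDKN3, GADD45A, BTG2 and CCNG1 kept their sign under the same 13. BAX, near 0, ran from -0.02 to 0.02. The counts were less stable. Of all probes tested, 8996 passed as reported, 21399 with the ratio of processed signals, 4435 with the methods' t-test and 16358 with no replicate block, and between 1239 (without replicate 4) and 5736 (without replicate 1) with a replicate left out. Of the other p53 target genes, 3 passed as reported, 5 with normexp and loess (5 with Aquantile too), 8 with the ratio of processed signals, 7 with median centring, 8 with the dim-probe filter and 6 with no replicate block, and 1 to 3 with a replicate left out. Of the 23 probes of the genes described, 7 passed as reported and between 0 (methods' t-test, and without replicate 3 or 4) and 20 (dim-probe filter) under the alternatives. Over the other lists, 18 genes passed as reported, 10 with the methods' t-test, and 5 to 13 with a replicate left out. The spread to which limma shrinks differed with the dim-probe filter, which leaves out probes at a ratio of 0 among other dim ones, with a prior SD of 0.022 on 0.47 degrees of freedom as reported and 0.14 on 2.3 with the dim-probe filter. The values of the deposited value table were the same, and that alternative says nothing about stability. Of the ratios named by rule, RPS27L, CHEK1, BTG3 and RB1 kept their call under all 15 alternatives. The 4 arrays limit the precision of every ratio. Changes of 1.5-fold were often missed in simulated data, in which far fewer probes were changed than passed in the real data. Dye and group cannot be told apart.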
